A study of Mus musculus with 6 samples.

Results

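The genes described here are Shoc2 and 6 genes of the Ras-RAF-ERK cascade, namely Nras, Hras, Braf, Map2k1, Spry1 and Spred1, which make 7 of the 49671 genes in the deposited count table. They were chosen by role (Ras, RAF, MEK, ERK, their scaffold and their inhibitors) and because Shoc2 was higher with the Cxxc5 hairpin in all 3 pairs of libraries. The difference between the hairpins was therefore used in the choice, and for the 7 genes it is given as a description with no test. All 7 passed the filter on low counts.

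RNA was sequenced from bone marrow cells of BALB/c mice. The shCxxc5 group received a retrovirus with a short hairpin RNA against Cxxc5, and the shCtrl group a retrovirus that targets no mouse gene. In both groups the marrow had been enriched for stem and progenitor cells, and GFP-positive LSK cells (Lineage-negative, Sca-1-positive, Kit-positive) were sorted and pooled from several animals. Each group has 3 libraries, numbered 2, 3 and 4, and neither the animals' age nor the hairpin's sequence is stated in the labels. Whether libraries with different numbers came from separate infections is not stated either, so each p-value reflects the spread among these libraries, and that spread may be technical.

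Ras proteins are small GTPases that switch on when a receptor such as Kit is bound by its ligand. Active Ras recruits RAF kinases, which phosphorylate MEK, which in turn phosphorylates ERK. SHOC2 is a leucine-rich-repeat scaffold that joins MRAS and the catalytic subunit of protein phosphatase 1, and this complex removes an inhibitory phosphate from RAF. Sprouty and SPRED proteins restrain the cascade, and ERK activity induces several of its own inhibitors, among them DUSP phosphatases. In blood progenitors the cascade is known for carrying cytokine signals for growth and differentiation.

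CXXC5 carries a zinc finger that binds DNA with unmethylated CpG, so the stretches upstream of the start sites are shown for 4 of the genes with each CpG in capitals. Shoc2, Hras and Spred1 are shown because their groups did not overlap, and Braf because its stretch holds a motif that few promoters hold. The sequences are RefSeq's (GRCm38.p6), each written on the gene's own strand and limited to bases outside annotated exons.
Shoc2, second start site, chr19:53944628-53944872, plus strand, in an intron of the transcripts from the first start site: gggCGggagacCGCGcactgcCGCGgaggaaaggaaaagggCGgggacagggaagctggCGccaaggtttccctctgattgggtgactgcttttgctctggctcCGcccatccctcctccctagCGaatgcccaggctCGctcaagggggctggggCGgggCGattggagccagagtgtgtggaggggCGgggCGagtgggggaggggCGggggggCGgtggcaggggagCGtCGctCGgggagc
Hras, chr7:141194006-141194156, minus strand, up to the start of the neighbour Lrrc56: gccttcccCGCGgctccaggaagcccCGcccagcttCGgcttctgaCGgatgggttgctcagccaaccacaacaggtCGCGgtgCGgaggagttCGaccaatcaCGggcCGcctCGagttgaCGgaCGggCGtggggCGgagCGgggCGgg
Spred1, chr2:117120821-117121070, plus strand: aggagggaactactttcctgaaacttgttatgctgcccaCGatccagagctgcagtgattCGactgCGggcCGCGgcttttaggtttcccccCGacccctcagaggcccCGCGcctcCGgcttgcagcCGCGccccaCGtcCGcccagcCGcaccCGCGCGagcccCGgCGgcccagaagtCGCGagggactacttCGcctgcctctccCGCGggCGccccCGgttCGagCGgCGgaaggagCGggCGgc
Braf, chr6:39725464-39725713, minus strand: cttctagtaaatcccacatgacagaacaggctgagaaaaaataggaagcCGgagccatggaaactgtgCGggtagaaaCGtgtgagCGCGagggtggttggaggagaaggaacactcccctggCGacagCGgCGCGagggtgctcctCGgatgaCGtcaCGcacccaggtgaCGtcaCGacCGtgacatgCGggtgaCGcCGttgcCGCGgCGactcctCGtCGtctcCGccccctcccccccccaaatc
In the 250 bases before each start site, CpG numbered 15 and 20 at the first and second start of Shoc2, 14 for Nras, 23 for Spry1, 24 each for Hras, Braf and Map2k1, and 31 for Spred1. Over 32841 RefSeq promoters of the same length the median was 6 CpG and the upper quartile 16. The second Shoc2 window held 7 GC boxes (GGGCGG) and 2 CCAAT boxes, while its first window held none of the motifs searched. GC boxes stood in 32.8% of all promoters and CCAAT boxes in 33.9%, counting both strands. The Braf window held 2 copies of the cyclic AMP response element TGACGTCA, which reads alike on both strands and was counted once per site, and 1.55% of all promoters held that motif. No window of the 7 genes held the AP-1 motif TGACTCA, found in 4.46% of all promoters. Matches of different motifs may share bases, and they only describe the sequence.

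Library totals ran from 15002414 to 27754019 counts. Cxxc5, the targeted gene, stood at 6.74, 17.4 and 17.9 CPM in shCxxc5 replicates 2, 3 and 4, against 82.2, 59.9 and 57.9 CPM in shCtrl replicates 2, 3 and 4 (CPM are counts scaled to a common library total, with TMM scaling between libraries). Its groups did not overlap, and the exact two-sided permutation p was 0.1, the smallest that 3 libraries against 3 can give. Without replicate 2 it was 0.333, the smallest for 2 against 2, and the log2 fold change of Cxxc5 was -2.25 (SE 0.40, edgeR adjusted p = 0.940) over 6 libraries and -1.74 (SE 0.07, adjusted p = 1.45e-16) in replicates 3 and 4. Kit was at 82.4 to 110 CPM in all libraries. Ly6a, which encodes the Sca-1 sort marker, was at 33.1 CPM in shCxxc5 replicate 2 and 46.4 CPM in shCtrl replicate 2, against 703 to 804 CPM in the other 4 libraries. Both replicate 2 libraries thus go against the LSK label at that marker, and differences between the hairpins are also given for replicates 3 and 4 alone.

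Shoc2 was higher with the Cxxc5 hairpin in every pair, by 1.40-fold or more. Its level was 91.0, 80.8 and 74.0 CPM in shCxxc5 replicates 2, 3 and 4, against 55.9, 56.2 and 52.7 CPM in shCtrl replicates 2, 3 and 4. Every shCxxc5 library was above every shCtrl library, with means of 81.9 ± 8.59 CPM in shCxxc5 and 54.9 ± 1.92 CPM in shCtrl (SD, n = 3 each). The log2 ratio of shCxxc5 over shCtrl was 0.70 in pair 2, 0.52 in pair 3 and 0.49 in pair 4, with counting errors (SE) of 0.05, 0.05 and 0.07. These ratios are folds of 1.63, 1.44 and 1.40, and they exceeded the ratios of 91.8%, 97.1% and 94.5% of the 14637 genes tested. The fitted log2 fold change was 0.58 (SE 0.10) over 6 libraries and 0.51 (SE 0.06) in replicates 3 and 4 alone, so it was nearly as large without the replicate 2 libraries. In pooled cells, a change in the share of cells that hold a transcript and a change in the transcript per cell cannot be told apart.

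Shoc2 lies at chr19:53944306-54033133 on the plus strand (GRCm38), head to head with Bbip1, whose product is a small subunit of the BBSome of cilia. The start sites are 321 bp apart, and 97 bp of Shoc2 exon overlap Bbip1 exons on the other strand. Since the strand setting of the counting is not given in the sources used here, reads of that stretch cannot be told apart. Bbip1 was at 41.2, 36.8 and 34.3 CPM in shCxxc5 replicates 2, 3 and 4, against 30.1, 32.3 and 35.3 CPM in shCtrl replicates 2, 3 and 4. Its groups overlapped, and its log2 fold change in replicates 3 and 4 was 0.09 (SE 0.07, edgeR adjusted p = 0.453).

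**Figure D1:**
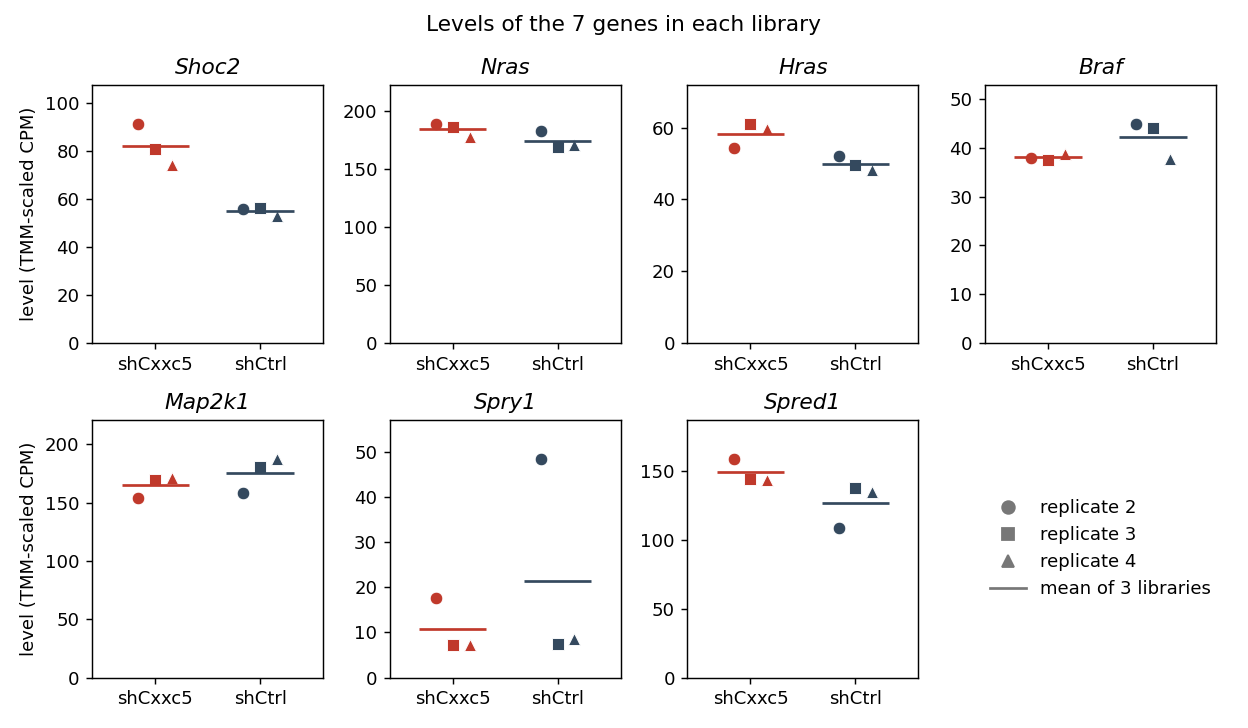
TMM-scaled CPM (vertical axes, each from 0) of the 7 genes in each library, shCxxc5 left and shCtrl right, with marker shapes for replicates 2, 3 and 4 and a line at each group's mean. Shoc2 lies between 74.0 and 91.0 CPM in shCxxc5 libraries and between 52.7 and 56.2 CPM in shCtrl libraries, and Spry1 is highest in the replicate 2 libraries, at 17.5 CPM in shCxxc5 and 48.3 CPM in shCtrl.

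Of the Ras genes, Hras was higher in shCxxc5 libraries with no overlap and Nras was not separated. Hras (chr7:141189105-141194005, minus strand), which encodes a Ras GTPase anchored to the plasma membrane and Golgi, was at 54.4, 60.9 and 59.6 CPM in shCxxc5 replicates 2, 3 and 4, against 52.0, 49.7 and 48.1 CPM in shCtrl replicates 2, 3 and 4. The lowest shCxxc5 library, replicate 2, was close to the highest shCtrl library, which was also replicate 2. The log2 ratios were 0.06, 0.29 and 0.31 in pairs 2, 3 and 4, and the fitted log2 fold change was 0.22 (SE 0.09) over 6 libraries and 0.30 (SE 0.06) without replicate 2. Lrrc56, whose start lies 152 bp from that of Hras on the other strand, had log2 ratios of -0.41, -0.19 and 0.09, and its groups overlapped.

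Nras (chr3:103058285-103067914, plus strand), a Ras GTPase often mutated in myeloid leukaemia, was at 188, 186 and 177 CPM in shCxxc5 replicates 2, 3 and 4, against 182, 169 and 171 CPM in shCtrl replicates 2, 3 and 4. The shCxxc5 library of each pair was the higher one, yet the groups overlapped. The log2 ratios were 0.05, 0.14 and 0.06, and the fitted log2 fold change was 0.08 (SE 0.08) over 6 libraries and 0.11 (SE 0.04) in replicates 3 and 4.

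The kinases Braf and Map2k1 lay slightly lower in most pairs, with overlapping groups. Braf (chr6:39603237-39725463, minus strand), which phosphorylates MEK, was at 38.0, 37.6 and 38.7 CPM in shCxxc5 replicates 2, 3 and 4, against 44.9, 44.0 and 37.7 CPM in shCtrl replicates 2, 3 and 4. The shCxxc5 library was the lower one in pairs 2 and 3 but not in pair 4, where shCtrl was itself low. Its log2 ratios were -0.24, -0.23 and 0.04, and the fitted log2 fold change was -0.15 (SE 0.10) over 6 libraries and -0.11 (SE 0.07) in replicates 3 and 4. Of its exons, 146 bp overlap Ndufb2 on the other strand.

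Map2k1 (chr9:64185770-64253631, minus strand), which encodes the kinase MEK1, was at 154, 169 and 172 CPM in shCxxc5 replicates 2, 3 and 4, against 159, 181 and 187 CPM in shCtrl replicates 2, 3 and 4. The shCxxc5 library was the lower one in each pair, by log2 ratios of -0.04, -0.09 and -0.13. The spread between replicate numbers was wider than the gap within a pair, and the fitted log2 fold change was -0.09 (SE 0.10) over 6 libraries and -0.10 (SE 0.04) in replicates 3 and 4.

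The inhibitors differed from each other. Spry1 (chr3:37639947-37644598, plus strand), a Sprouty protein that restrains receptor signalling to Ras and RAF, was at 17.5, 7.27 and 7.28 CPM in shCxxc5 replicates 2, 3 and 4, against 48.3, 7.54 and 8.48 CPM in shCtrl replicates 2, 3 and 4. Both replicate 2 libraries were high and shCtrl replicate 2 stood far above all others, so the mean was 10.7 ± 5.91 CPM in shCxxc5 and 21.5 ± 23.3 CPM in shCtrl (SD, n = 3 each). The log2 ratio was -1.46 in pair 2, and -0.05 and -0.22 in pairs 3 and 4. The fitted log2 fold change was -1.00 (SE 0.82) over 6 libraries, -0.12 (SE 0.14) in replicates 3 and 4, and 0.42 without shCtrl replicate 2 alone. These counts may include antisense reads, since 710 bp of Spry1 exon overlap Gm42922 on the other strand.

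Spred1 (chr2:117121374-117182279, plus strand), which brings the Ras GTPase-activating protein neurofibromin to the membrane, was at 158, 144 and 143 CPM in shCxxc5 replicates 2, 3 and 4, against 109, 137 and 134 CPM in shCtrl replicates 2, 3 and 4. Every shCxxc5 library was above every shCtrl library, and the gap was widest in pair 2, where shCxxc5 was at its highest and shCtrl at its lowest. The log2 ratios were 0.54, 0.07 and 0.10, and the fitted log2 fold change was 0.23 (SE 0.11) over 6 libraries but 0.09 (SE 0.04) in replicates 3 and 4.

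Over the 7 genes, 3 (Shoc2, Hras and Spred1) had groups that did not overlap with shCxxc5 higher, and none had them with shCxxc5 lower. Over all 14637 genes tested, 6.72% did not overlap with shCxxc5 higher and 6.35% with shCxxc5 lower. In replicates 3 and 4 alone, 4 of the 7 did not overlap with shCxxc5 higher (Shoc2, Nras, Hras and Spred1) and 2 with shCxxc5 lower (Map2k1 and Spry1), beside 27.4% and 29.3% of all genes. In the edgeR test of replicates 3 and 4 alone, 11% of 14193 genes were called higher and 9.00% lower at an adjusted p under 0.05. Nothing is read from the counts of members, because this contrast chose them.

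**Figure D2:**
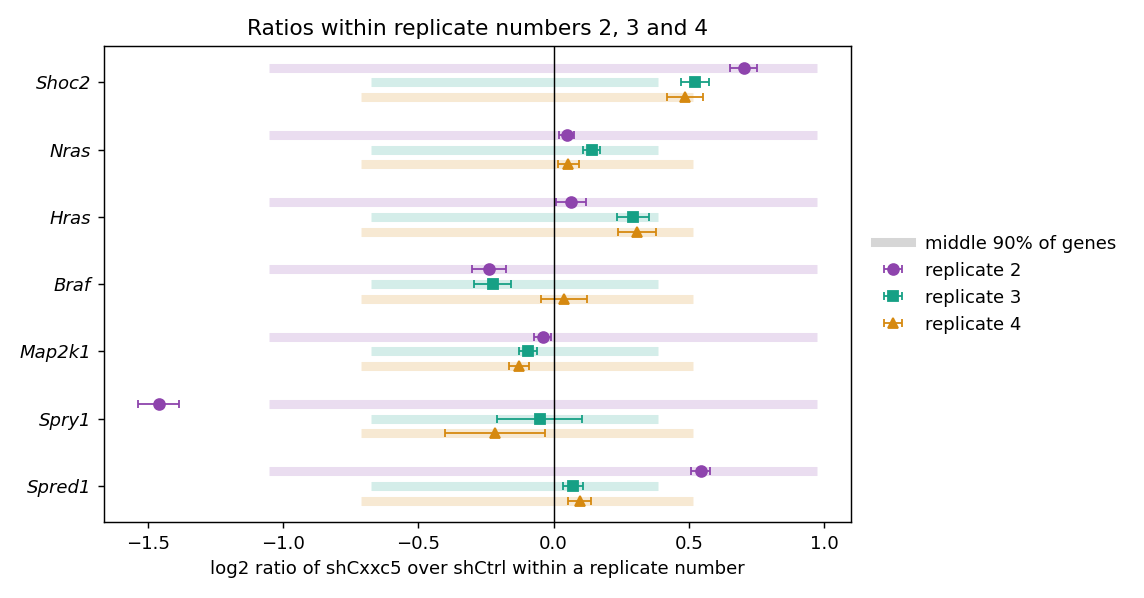
Log2 ratio of shCxxc5 over shCtrl within replicate numbers 2, 3 and 4 for each of the 7 genes, with the counting error (SE) as bars and the middle 90% of all tested genes in each pair as a shaded band. Shoc2 lies at 0.70, 0.52 and 0.49, and the band of pair 2 is the widest, from -1.05 to 0.97.

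Levels of different genes were compared per kilobase of merged exon. Over the 6 libraries the mean was 50.2 CPM per kb for Map2k1, 33.6 for Nras, 20.3 for Spred1, 14.5 for Hras, 12.3 for Shoc2, 5.53 for Spry1 and 2.90 for Braf. Map2k1 and Nras each stood above the next gene in that order in all libraries. From Spred1 downward, each gene's range over libraries overlapped that of the next one. In replicates 3 and 4 alone the order was the same except that Braf, at 2.85, stood above Spry1, at 2.63, and only Hras with Shoc2 and Braf with Spry1 overlapped among neighbours. On this scale Shoc2 had 14.7 ± 1.54 CPM per kb in shCxxc5 libraries and 9.85 ± 0.34 in shCtrl libraries (SD, n = 3 each), and its shCxxc5 levels fell within the range of Hras.

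By Pearson's r of log2 CPM over the 6 libraries, among 9457 genes with an average log2 CPM of at least 3, the closest to Shoc2 were Rps27a (r = 0.989), Psmd9 (r = 0.987), Tmem41a (r = 0.985), B3galnt2 (r = 0.982) and R3hcc1l (r = 0.982). In all, 27 genes exceeded an r of 0.95, and each r rests on 6 libraries that share the same depths and hairpins. Rps27a encodes a ubiquitin fused to a ribosomal protein and has near-identical copies, so its counts are uncertain. Psmd9, which helps assemble the proteasome, was at 41.5, 37.9 and 36.9 CPM in shCxxc5 replicates 2, 3 and 4, against 33.3, 33.1 and 31.3 CPM in shCtrl replicates 2, 3 and 4. The log2 fold changes of these 5 genes over 6 libraries, 0.13 to 0.30, were all smaller than the 0.58 of Shoc2. In replicates 3 and 4 alone, both shCxxc5 libraries were above both shCtrl libraries for all 5, as for 27.4% of all genes. Their log2 fold changes there were 0.12 to 0.27 beside the 0.51 of Shoc2. The choice of the 5 genes used these same libraries, so their separation there is a description and no separate check. No r is given for those 4 libraries, which are too few for one.

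The rest of the pathway was described from 9 lists with 88 further genes, of which 81 passed the filter on low counts. All 9 lists were chosen with earlier results of these data known. Over all 6 libraries the edgeR test called 0 of the 81, as it called 0% of all 14637 genes. At an unadjusted p under 0.05 it had 6 of the 81 and 575 of all genes. DESeq2 called Dusp5 alone among the pathway genes, DESeq2 with the replicate block called Dusp5 and Egr1, and limma-voom and edgeR with the replicate block called none. Groups did not overlap for 3 of the 81 with shCxxc5 higher (3.70%), among them Rap1a and Ppp1ca, beside 6.72% of all genes. For 10 they did not overlap with shCxxc5 lower (12.3%), beside 6.35% of all genes. In replicates 3 and 4 alone these were 18 (22.2%) and 24 (29.6%), beside the 27.4% and 29.3% of all genes.

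Without the replicate 2 libraries, in replicates 3 and 4, edgeR called 5 of the 81 higher (6.17%) and 12 lower (14.8%), beside the 11% and 9.00% of all genes. Of these 17, 9 were called under each of 8 alternatives, which were other scalings, DESeq2, the replicate block and leaving out each library. The other 8 were lost under at least 1 of them, and the median log2 fold change of the 81 was -0.03, beside -0.003 for all genes. Besides those taken by the rule for names, the genes named from here on were chosen after their values were seen.

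Of 7 other genes of the Ras family, 1 was called higher in replicates 3 and 4 (14.3%, near the 11% of all genes) and none lower. The called gene is among those left unreported. Rras2, a close relative of Ras, had a log2 fold change of 0.12 in these libraries (adjusted p = 0.0955), and Rras had -0.28 (adjusted p = 0.108). Neither Rras2 nor Rras was called.

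Among partners of SHOC2 and other scaffolds, 1 of 8 was called in replicates 3 and 4, as higher (12.5%, near the 11% of all genes). Ppp1ca, a catalytic subunit of protein phosphatase 1, was higher by 0.10 (SE 0.03, adjusted p = 0.0330), but the call was lost without shCxxc5 replicate 3, shCxxc5 replicate 4 or shCtrl replicate 3, with DESeq2 and with upper-quartile scaling. Of its exons, 416 bp overlap other genes on the opposite strand. Ppp1cb, another catalytic subunit, had 0.10 (adjusted p = 0.0910), and the scaffold Ksr1 had -0.17 (adjusted p = 0.0775). Mras, the Ras protein in the SHOC2 complex, was low, at 1.08, 1.29 and 1.73 CPM in shCxxc5 replicates 2, 3 and 4, against 0.72, 1.47 and 1.55 CPM in shCtrl replicates 2, 3 and 4. The RAF kinase gene Araf had -0.09 (adjusted p = 0.237), and the MEK kinase gene Map2k2 had 0.04 (adjusted p = 0.560). Neither was called.

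The list with the most calls was that of genes induced by ERK. It was chosen with earlier results of these data known, so its share of calls and its p-values are a description and no separate check. In replicates 3 and 4, 6 of its 12 tested genes fell (50%) and none rose, beside 9.00% lower and 11% higher of all genes. The median log2 fold change of the list was -0.36. Over 6 libraries the median was -0.26, beside -0.02 for all genes, and none was called. Dusp5, an ERK phosphatase of the nucleus, was at 91.1, 81.9 and 82.5 CPM in shCxxc5 replicates 2, 3 and 4, against 126, 138 and 135 CPM in shCtrl replicates 2, 3 and 4. Its groups did not overlap, and it fell by 0.73 in replicates 3 and 4 (log2, SE 0.05, adjusted p = 8.32e-13). Of its exons, 547 bp overlap AC137853.2 on the other strand.

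Fos, a subunit of the AP-1 transcription factor, was at 66.1, 49.4 and 50.9 CPM in shCxxc5 replicates 2, 3 and 4, against 79.9, 77.5 and 78.2 CPM in shCtrl replicates 2, 3 and 4. The shCxxc5 libraries were all lower, and it fell by 0.63 in replicates 3 and 4 (log2, SE 0.06, adjusted p = 1.69e-09). Egr1, a zinc finger transcription factor, was at 40.1, 29.9 and 33.1 CPM in shCxxc5 replicates 2, 3 and 4, against 87.8, 50.0 and 43.8 CPM in shCtrl replicates 2, 3 and 4. It fell by 0.59 in replicates 3 and 4 (log2, SE 0.08, adjusted p = 1.30e-06). The other genes called lower there were Dusp4 (-0.40), Dusp6 (-0.40), an ERK phosphatase of the cytoplasm, and Ier3 (-0.32), all 6 under each of the 8 alternatives. Dusp6 went the other way in pair 2, at 87.0 CPM in shCxxc5 and 80.1 CPM in shCtrl, and that difference between pairs was not tested.

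Of 17 further inhibitors, 3 fell in replicates 3 and 4 (17.6%) and none rose, beside 9.00% lower and 11% higher of all genes. The 3 were Dab2ip (-0.28, adjusted p = 0.00180) and Rasal3 (-0.13, adjusted p = 0.0297), both Ras GTPase-activating proteins, and the Sprouty gene Spry2 (-0.41, adjusted p = 0.00910). The Spry2 and Rasal3 calls were lost with DESeq2 and without shCxxc5 replicate 3, shCxxc5 replicate 4 or shCtrl replicate 3. Among 15 exchange factors and adaptors, Gab2 (-0.22, adjusted p = 0.00990) and Sos1 (-0.26, adjusted p = 0.0240) fell (13.3%, beside 9.00% of all genes). Both calls were lost with DESeq2 and without shCxxc5 replicate 4 or shCtrl replicate 3. Gab2 was also lost without shCxxc5 replicate 3. None of 7 Ras processing enzymes was called.

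Of 10 ERK substrates, the kinases Rps6ka3 (0.24, adjusted p = 1.34e-05), Rps6ka1 (0.17, adjusted p = 0.00260) and Mknk2 (0.13, adjusted p = 0.00787) rose and Mknk1 (-0.25, adjusted p = 0.0267) fell in replicates 3 and 4. These shares, 30% higher and 10% lower, stood beside 11% and 9.00% of all genes. The Mknk1 call was lost with DESeq2 and when any 1 of the 4 libraries was left out. Rps6ka1 was lost without shCxxc5 replicate 3 or shCtrl replicate 4, and Mknk2 without shCxxc5 replicate 4 or shCtrl replicate 4. In the same libraries the summed level of 6 megakaryocyte markers was 92.1 and 89.9 CPM in shCxxc5 replicates 3 and 4, against 138 and 147 CPM in shCtrl replicates 3 and 4, with 4 of the 6 called lower and no marker at 0. Of 6 granulocyte and monocyte markers, 2 were called higher and 1 lower there. Of 6 mast cell and basophil markers, 3 were called higher and 2 lower. Of 4 tested erythroid markers, 2 were called lower, and of 6 LSK sort markers, 2 were called higher and 2 lower. Thy1, the only B and T cell marker tested, was called lower. Over all genes, 11% were called higher and 9.00% lower. The part of all these cell types in the pathway differences was not tested.

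**Figure D3:**
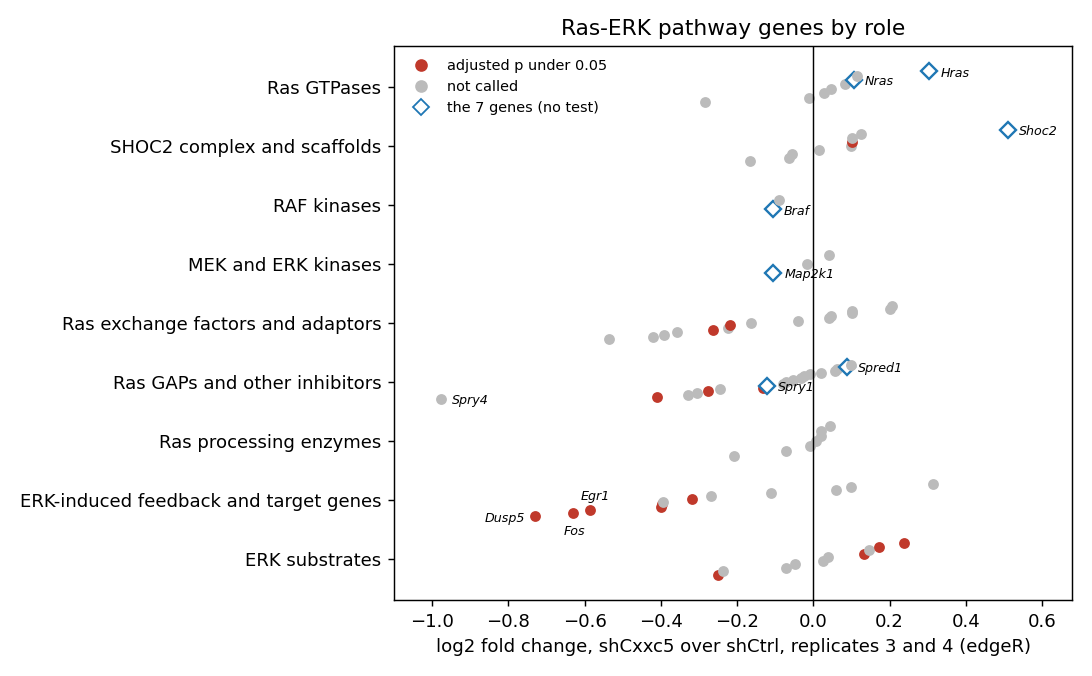
Log2 fold change of shCxxc5 over shCtrl in replicates 3 and 4 (edgeR, horizontal axis) for the tested pathway genes reported here, by role, with genes at an adjusted p under 0.05 in red and the 7 genes, for which no test is given, as open diamonds. Dusp5, Fos and Egr1 lie at -0.73, -0.63 and -0.59, and Spry4, at -0.98, was not called (adjusted p = 0.0591).

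The replicate 2 libraries were set against replicates 3 and 4 with the hairpin in the fit, a contrast that the choice of the 7 genes did not use. In this edgeR test 17.7% of 14637 genes were called higher in replicate 2 and 18.7% lower. Of the 7 genes, Spry1 was called higher and Map2k1 lower, and Shoc2, Nras, Hras, Braf and Spred1 were not called. A share of 1 in 7 in each direction is near those backgrounds.

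Spry1 was higher in replicate 2 by 1.98 (log2, SE 0.28, 3.95-fold, adjusted p = 0.00338). The 2 libraries were at 17.5 CPM in shCxxc5 and 48.3 CPM in shCtrl, and the other 4 lay between 7.27 and 8.48 CPM. The difference was 2.60 without shCxxc5 replicate 2 and 1.27 without shCtrl replicate 2, and it was called in both. Megakaryocyte markers were highest in the same libraries, with a summed level of 1232 CPM in shCxxc5 replicate 2 and 5006 CPM in shCtrl replicate 2, against 89.9 to 147 CPM in the other 4. All 6 of those markers were called higher in replicate 2 and none was at 0 in any library. Granulocyte and monocyte markers summed to 5258 CPM in shCxxc5 replicate 2 and 699 CPM in shCtrl replicate 2, against 868 to 1061 CPM elsewhere. That sum hides opposite directions, since of its 6 markers only Elane was called higher in replicate 2 and Ly6g was called lower. Ly6g was at 2.88 CPM in shCxxc5 replicate 2 and 1.14 CPM in shCtrl replicate 2, against 7.27 to 10.4 CPM elsewhere. Mast cell and basophil markers summed to 1448 CPM in shCxxc5 replicate 2 and 248 CPM in shCtrl replicate 2, against 353 to 373 CPM elsewhere. Of these 6 markers, only Mcpt8 and Gata2 were called higher in replicate 2, and none was called lower. In replicate 2, Cpa3, Fcer1a, Ms4a2 and Prss34 were above replicates 3 and 4 in shCxxc5 but below them in shCtrl. Erythroid markers summed to 132 CPM in shCxxc5 replicate 2 and 45.0 CPM in shCtrl replicate 2, against 9.18 to 14.0 CPM elsewhere. The sum of B and T cell markers was lower in replicate 2, at 18.3 CPM in shCxxc5 and 6.47 CPM in shCtrl, against 42.0 to 54.0 CPM elsewhere. Of these markers only Thy1 passed the filter on low counts, and Cd3e was at 0 in all libraries. The part of all these cell types in the Spry1 difference was not tested.

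Map2k1 was lower in replicate 2, with a log2 difference of -0.18 (SE 0.05, adjusted p = 0.0351). Its levels were 154 CPM in shCxxc5 replicate 2 and 159 CPM in shCtrl replicate 2, against 169 and 172 CPM in shCxxc5 and 181 and 187 CPM in shCtrl replicates 3 and 4. The replicate 2 libraries were the lowest of all 6, but the call was lost without shCxxc5 replicate 3 (adjusted p = 0.0809), shCxxc5 replicate 4 (0.0931), shCtrl replicate 3 (0.0916) or shCtrl replicate 4 (0.0955), and with upper-quartile scaling (0.0617).

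Shoc2 had a difference of 0.14 between replicate numbers (log2, SE 0.08, adjusted p = 0.210). Without shCtrl replicate 2 this difference was 0.23 (adjusted p = 0.00182). Spred1 had -0.08 (SE 0.10, adjusted p = 0.562), with -0.32 without shCxxc5 replicate 2 (adjusted p = 8.93e-07) and 0.14 without shCtrl replicate 2 (adjusted p = 0.0174), so its direction depended on which replicate 2 library was used. Nras had 0.08 (SE 0.05, adjusted p = 0.276), Braf 0.06 (SE 0.09, adjusted p = 0.602) and Hras -0.03 (SE 0.08, adjusted p = 0.789).

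**Figure D4:**
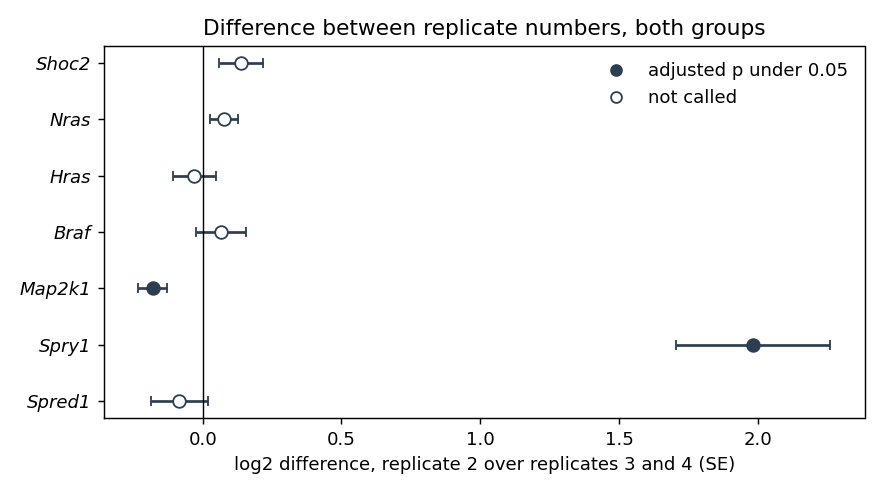
Log2 difference of replicate 2 over replicates 3 and 4 across both groups (edgeR, horizontal axis) for the 7 genes, with SE as bars and filled points at an adjusted p under 0.05. Spry1 lies at 1.98 and Map2k1 at -0.18, and the other 5 genes lie between -0.08 and 0.14.

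Of the 81 further pathway genes, 26 were higher in replicate 2 (32.1%) and 14 lower (17.3%), beside 17.7% and 18.7% of all genes. The RAF kinase gene Araf was higher by 0.34 (SE 0.06, adjusted p = 0.00892). The small GTPase gene Rap1b was higher by 1.46 (SE 0.11, adjusted p = 0.000315), at 498 CPM in shCxxc5 replicate 2 and 693 CPM in shCtrl replicate 2, against 206 to 223 CPM in the other libraries. The ERK-induced genes were mixed, with 5 higher and 2 lower of 12. Fosl1, an AP-1 subunit, was the most different of them at 2.07 (SE 0.27, adjusted p = 0.00249) from a low level of 2.24 CPM or less, and Ier3 was lower by a log2 difference of -1.04 (SE 0.07, adjusted p = 0.000180). Dusp5 had 0.02 (SE 0.07, adjusted p = 0.865) and Fos 0.22 (SE 0.09, adjusted p = 0.105). Of the 40 calls, 16 were made under each of 9 alternatives.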

How the data were processed

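Messenger RNA of sorted LSK cells was measured in 6 libraries. The authors deposited raw read counts per gene, made with a stranded mRNA kit per the labels' protocols. Per the submitters' processing notes, reads were handled with STAR 2.5.2b, featureCounts 1.5.1 and DESeq2 on GRCm38. For the strand setting and the annotation release, nothing is given in the sources used here. Symbols came from GENCODE M21 for 49412 of 49671 identifiers, and the others held 0.0557% of counts. Library totals of 15002414 to 27754019 counts limit the precision, and the counts carry no molecular identifiers. Counting errors are computed from the counts alone, so they cover reads only, not animals.

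The comparisons used edgeR 4.0.16 (R 4.3.3) with TMM scaling, filterByExpr, the robust quasi-likelihood test and Benjamini-Hochberg adjustment over all tested genes at 0.05. Over 6 libraries and in replicates 3 and 4 the fit held the hairpin alone, and the replicate contrast held the hairpin as a covariate. A fit with 1 library left in a cell assumes that it varies like the rest. SE is the size of the fitted log2 value over the root of its F statistic, and the prior count for log2 CPM was 2. Pair ratios have a Poisson counting error. Non-overlap was judged on TMM-scaled CPM.

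Named genes are the 7, Cxxc5, in each of 9 pathway lists the 3 further tested genes of smallest unadjusted p over 6 libraries and in replicates 3 and 4, and the 5 genes most like Shoc2. A few of the genes so chosen are left unreported, although the counts over lists include them. The 7 genes and all lists were chosen with earlier results of these data known. Replicate numbers are shared by the groups, and for the pair ratios and the replicate block they were taken to pair the samples. Deviations from the group means correlated at 0.67, 0.55 and 0.49 between libraries numbered 2, 3 and 4. Crossing numbers 3 and 4 between the groups gave 0.48 and 0.49. Crossing number 2 with number 3 or 4 gave -0.61 to -0.56. Since each deviation is from the mean of 3 libraries, opposite signs are partly built in. These values set replicate 2 apart, but they do not show whether numbers 3 and 4 are paired across groups. Alternatives were other scalings and filters, DESeq2 1.42.0, limma-voom (limma 3.58.1), the replicate block, another prior count and leaving out each library. Leaving both replicate 2 libraries out of the non-overlap counts, the Cxxc5 permutation test, the levels per kilobase and the genes like Shoc2 was chosen after seeing the data. The code was tested on simulated counts.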

Additional observations from a re-analysis of the deposited data

How the results depend on the processing

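The log2 ratios of the 7 genes within replicate numbers kept their direction under the other scalings and prior count, and Shoc2 stayed between 0.50 and 0.65 over 6 libraries under 14 alternatives. With the replicate block, the paired edgeR fit called 0 genes higher and 0 lower over 6 libraries, and 1790 higher and 1510 lower in replicates 3 and 4, against 1555 and 1278 without it. DESeq2 called 2 higher and 10 lower over 6 libraries, 19 and 120 with the replicate block, and 734 and 503 in replicates 3 and 4. Leaving out each library gave 0 to 0 calls over 6 libraries, 800 to 1133 higher and 671 to 910 lower in replicates 3 and 4, and 1539 to 4307 higher and 1644 to 4509 lower for replicate 2 over replicates 3 and 4, against 2588 and 2742 with all libraries.

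Some differences changed sign when 1 library was left out, and the values here are the lowest and highest of those settings. Spry1 over 6 libraries ran from -1.561 to 0.4242, the highest without shCtrl replicate 2. Braf in replicates 3 and 4 ran from -0.2017 to 0.0175, the highest without shCtrl replicate 3. For replicate 2 over replicates 3 and 4, Hras ran from -0.15 to 0.0835, the highest without shCxxc5 replicate 2, and Spred1 from -0.3246 to 0.1393, the highest without shCtrl replicate 2. Braf ran from -0.0032 to 0.1209, and was below 0 without shCtrl replicate 2 and, at -0.0004, without shCtrl replicate 4. Map2k1 lost its call there with the hairpin left out of the fit (adjusted p = 0.101) and under the settings given with its values. The cause was not tested. With 2 or 3 libraries a group and a lone pair numbered 2, small differences of the 7 genes were not resolved.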
